A study of Mus musculus with 2 samples.

Results

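The amyloid precursor family and the enzymes that cut its proteins were examined in embryonic mouse brain through 9 genes: the precursors App, Aplp1 and Aplp2, the alpha-secretase Adam10, the beta-secretase Bace1, and the gamma-secretase subunit genes Psen2, Ncstn, Aph1a and Psenen. They were picked by symbol, through their Ensembl identifiers, from 43346 annotated genes, and all 9 had a value in both libraries. The study measured polyadenylated RNA longer than the size cut of the protocol from the whole brain of mouse embryos of the C57BL/6J strain, taken at embryonic day 14.5, with no treatment and no altered allele. The 2 libraries, replicate 2 and replicate 1, form 1 group, so the study holds no contrast. Per the labels the embryos were littermates of both sexes, and the libraries have separate biosample records under 1 donor record. The labels number the libraries as biological replicates 2 and 1 but do not tie animals to them. How much of the spread between these 2 samples is technical cannot be told from the labels. The libraries also differed in markers of brain regions, given below.

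As background, the 3 precursors are type I membrane proteins that share an extracellular region and a short cytoplasmic tail. A first cut outside the membrane, by Adam10 or Bace1, sheds the ectodomain, and gamma-secretase then cuts the remaining stub within the membrane, releasing a small peptide and the intracellular domain. Only App encodes the amyloid beta peptide, which arises when Bace1 makes the first cut. Gamma-secretase is a complex of a presenilin, which holds the catalytic site, with nicastrin (Ncstn), an Aph1 protein and Pen-2 (Psenen), and it also cuts Notch receptors in the developing brain. On mm10 (GENCODE vM21), the precursor genes lie on the minus strand, App at chr16:84949685-85173766, Aplp1 at chr7:30434982-30445535 and Aplp2 at chr9:31149557-31211815. The shedding enzymes lie on the plus strand of chromosome 9, Adam10 at chr9:70678997-70780229 and Bace1 at chr9:45838580-45864399. Of the gamma-secretase genes, Aph1a lies on the plus strand at chr3:95893969-95898288, and the others on the minus strand, Psen2 at chr1:180227004-180263438, Ncstn at chr1:172066013-172082795 and Psenen at chr7:30561863-30563627.

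Precursors of this family are known to differ by short exons that are spliced in or out, and the results below on splicing turn on 5 of them. The exon that encodes the Kunitz-type protease inhibitor domain is 168 nt long in both App and Aplp2, and the copies are shown first because their use differed between these genes. Sequences are from GENCODE vM21 transcripts on mm10, 5′ to 3′ on the minus strand of the genome, and capitals mark the bases that are the same at the same position in both exons. App exon 7 lies at chr16:85043576-85043743 and Aplp2 exon 7 at chr9:31167561-31167728.
App exon 7: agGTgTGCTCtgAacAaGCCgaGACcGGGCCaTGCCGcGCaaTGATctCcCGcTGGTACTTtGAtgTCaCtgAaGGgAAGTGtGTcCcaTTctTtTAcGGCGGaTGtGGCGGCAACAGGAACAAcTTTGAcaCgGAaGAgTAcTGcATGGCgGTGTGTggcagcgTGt
Aplp2 exon 7: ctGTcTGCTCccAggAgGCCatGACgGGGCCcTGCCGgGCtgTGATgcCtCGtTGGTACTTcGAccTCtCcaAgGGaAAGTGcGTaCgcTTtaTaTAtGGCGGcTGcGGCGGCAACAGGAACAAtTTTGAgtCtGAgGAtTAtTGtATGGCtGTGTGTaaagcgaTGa
Aligned without gaps, 114 of 168 positions were identical (67.9%), and the longest identical run was 17 bases. The remaining 3 exons are shown because their inclusion differed widely, from low to high. In them capitals mark the exon and lower case the 15 bases of spliced transcript on either side. App exon 8 (57 nt, chr16:85040251-85040307) follows exon 7 in the transcript shown, App exon 15 (54 nt, chr16:84971408-84971461) lies closer to the membrane-spanning part, and Aplp2 exon 14 (36 nt, chr9:31156190-31156225) lies in the corresponding stretch of Aplp2.
App exon 8: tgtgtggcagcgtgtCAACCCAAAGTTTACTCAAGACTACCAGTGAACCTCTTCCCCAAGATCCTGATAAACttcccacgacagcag
App exon 15: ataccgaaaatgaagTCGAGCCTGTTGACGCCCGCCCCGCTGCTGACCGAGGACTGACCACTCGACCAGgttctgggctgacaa
Aplp2 exon 14: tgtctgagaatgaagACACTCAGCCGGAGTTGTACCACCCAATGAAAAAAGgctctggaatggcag
Each of these 5 exons has a length divisible by 3, so that leaving it out keeps the reading frame.

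Levels are given in TPM (transcript abundance scaled by length and library total), which allows genes to be set side by side. A gene was called detected at 1 TPM or more in both libraries, which held for 62.2% of 21474 protein-coding genes and 33.9% of all annotated genes, and all 9 members were detected. The 3 precursors led the set. Aplp1, the family member largely confined to neurons, stood at 446 TPM in replicate 2 against 447 TPM in replicate 1 (mean 446.4 ± 0.24, SD, n = 2), which ranked it 228th among protein-coding genes. App stood at 364 TPM in replicate 2 against 227 TPM in replicate 1 (mean 295 ± 96.6, SD, n = 2), rank 375. Aplp2, expressed in most tissues, stood at 149.7 TPM in replicate 2 against 127 TPM in replicate 1 (mean 138.5 ± 15.9, SD, n = 2), rank 958. Aplp1 was thus steady between the libraries, while App was 1.60 times as high in replicate 2. Their expected counts, the authors' estimates of fragments per gene, were 59658 in replicate 2 and 66338 in replicate 1 for Aplp1. They were 65043 in replicate 2 and 45162 in replicate 1 for App, and 31000 in replicate 2 and 29407 in replicate 1 for Aplp2. Those of the secretase genes ran from 1313 for Psen2 in replicate 2 to 14845 for Aph1a in replicate 1.

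Summed, the precursors reached 960 TPM in replicate 2 against 801 TPM in replicate 1. Aplp1 made up 46.5% of that sum in replicate 2 and 55.8% in replicate 1. App made up 37.9% in replicate 2 and 28.3% in replicate 1, and Aplp2 15.6% in replicate 2 against 15.9% in replicate 1. The share of Aplp2 moved by under 1 percentage point, and those of App and Aplp1 by 9 or more.

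In TPM, 3 of the 4 gamma-secretase subunit genes lay close together and the presenilin lay below them, but the other deposited measures placed Psenen and Aph1a lower. The mean mm9 RPKM (reads scaled by length and library total) was 11.2 for Ncstn, 7.23 for Aph1a, 2.04 for Psenen and 1.38 for Psen2, so that on that scale Psenen lay nearest to Psen2. Aph1a, which scaffolds the complex, had 104 TPM in replicate 2 against 155 TPM in replicate 1 (mean 129.5 ± 35.6, SD, n = 2). Ncstn, the subunit that gates substrates, had 103 TPM in replicate 2 against 116 TPM in replicate 1 (mean 109.5 ± 8.62, SD, n = 2). The only protein-coding transcript listed for Ncstn had a mean of 61.1 TPM, below the levels of Aph1a and Psenen. Psenen, needed for the presenilin to mature, had 80.0 TPM in replicate 2 against 132 TPM in replicate 1 (mean 106 ± 37.0, SD, n = 2). All 3 were lower in replicate 2. Psen2, a presenilin, had 13.7 TPM in replicate 2 against 16.3 TPM in replicate 1 (mean 14.96 ± 1.85, SD, n = 2), rank 7899 and the lowest level of the 9. It made up 4.53% of the summed TPM of these 4 genes in replicate 2 and 3.88% in replicate 1. The sum itself was 301 TPM in replicate 2 against 419 TPM in replicate 1.

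Both enzymes that make the first cut were expressed at similar, moderate levels. Adam10, a membrane-bound metalloprotease, had 42.8 TPM in replicate 2 against 35.2 TPM in replicate 1 (mean 39.0 ± 5.44, SD, n = 2). Bace1, a membrane-bound aspartyl protease, had 40.3 TPM in replicate 2 against 32.5 TPM in replicate 1 (mean 36.4 ± 5.52, SD, n = 2). Each gene differed more between the libraries than the means of these genes differed from each other. Within each library, however, Adam10 was slightly above Bace1, by a mean log2 ratio of 0.10 ± 0.02 in TPM (SD, n = 2). In mm9 RPKM that ratio was 0.06 ± 0.08 (SD, n = 2), smaller than its spread.

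**Figure D1:**
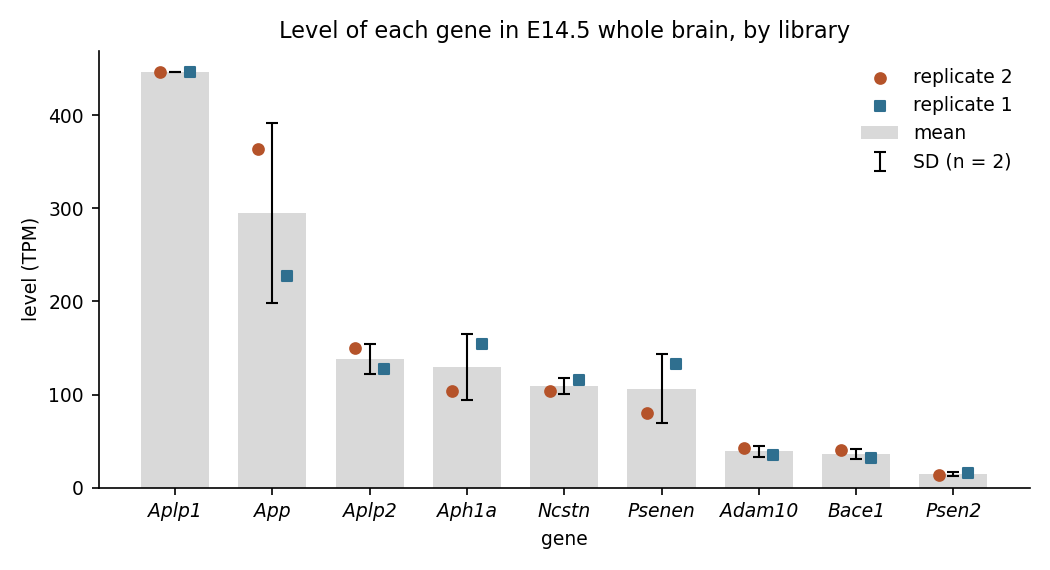
Level of each gene in TPM on the vertical axis (linear, from 0), with circles for replicate 2, squares for replicate 1, bars for the mean and error bars for the SD (n = 2). Aplp1 at 446 TPM and App at 295 TPM lead, Aplp2, Aph1a, Ncstn and Psenen lie between 106 and 138.5 TPM, and Psen2 is lowest at 14.96 TPM.

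From high to low the order of mean levels was Aplp1, App, Aplp2, Aph1a, Ncstn, Psenen, Adam10, Bace1 and Psen2. Neighbours counted as apart if their log2 ratio had the same sign in both libraries and a mean larger than its SD. With 2 libraries this rule is loose, and how often pairs of other genes meet it was not computed. By this rule 5 of 8 neighbouring pairs were apart in TPM, Adam10 over Bace1 among them. Aplp1 lay above App by a mean log2 ratio of 0.64 ± 0.48 and App above Aplp2 by 1.06 ± 0.32. Psenen lay above Adam10 by 1.41 ± 0.72 and Bace1 above Psen2 by 1.28 ± 0.40 (SD, n = 2 each). In mm9 RPKM 2 of these 5 pairs stayed apart in the same direction, App over Aplp2 and Bace1 over Psen2. Psenen over Adam10 turned round there, with a mean log2 ratio of -1.28 ± 0.68 (SD, n = 2), and Aplp1 over App gave -0.001 and 0.64 in the table's first and second values, which is not apart. The neighbours from Aplp2 to Psenen were not apart in TPM: Aplp2 over Aph1a gave 0.52 in replicate 2 and -0.28 in replicate 1, Aph1a over Ncstn gave 0.01 in replicate 2 and 0.42 in replicate 1, and Ncstn over Psenen gave 0.37 in replicate 2 and -0.20 in replicate 1. Over all 36 pairs of members, 32 were apart in TPM, and the 4 that were not all fell among Aplp2, Aph1a, Ncstn and Psenen.

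Differences between the libraries are given as log2((TPM + 1) in replicate 2 / (TPM + 1) in replicate 1), with a call at 2-fold. None of the 9 members passed it, against 3.52% of 15240 genes with a mean of at least 1 TPM. With 1 library against 1 no p-value exists. App had the highest ratio at 0.68, and 11.0% of those genes had a larger ratio in size. Psenen had the lowest at -0.72, with 9.49% of genes larger in size, followed by Aph1a at -0.56. Bace1 (0.30), Adam10 (0.28), Aplp2 (0.23), Ncstn (-0.16), Psen2 (-0.24) and Aplp1 (-0.001) lay nearer to 0. In all, 4 members were higher and 5 lower in replicate 2. The 4 gamma-secretase genes were all among the lower ones, and both shedding enzymes among the higher. The median log2 ratio over all 15240 genes was 0.01, so either sign is common. Other gamma-secretase subunit genes, on the lists below, did not all share the lower direction. The median size of the log2 ratio was 0.28 over the members and 0.27 over all 15240 genes.

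**Figure D2:**
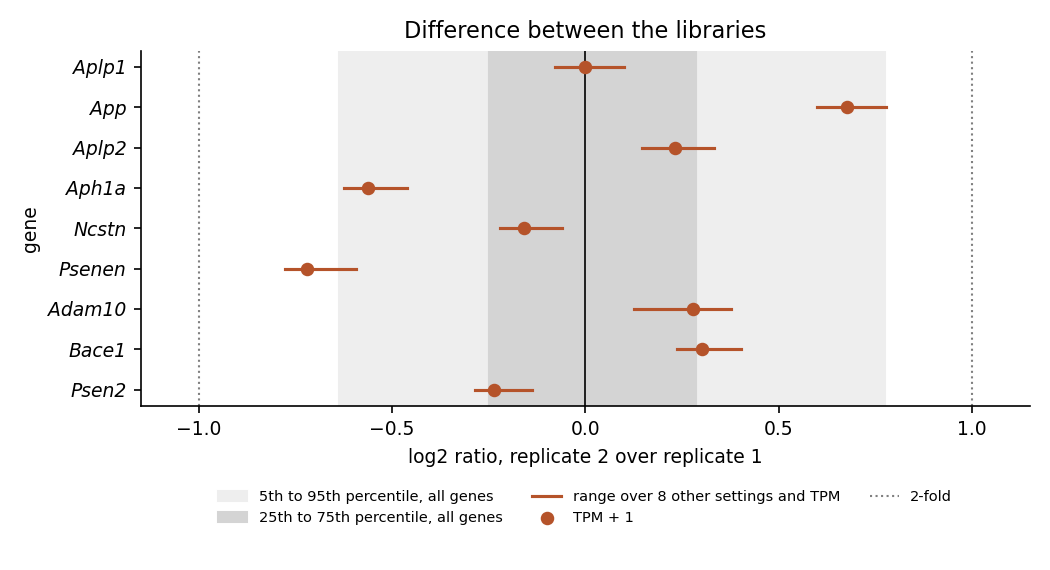
Log2 ratio of replicate 2 over replicate 1 for each gene (points, from TPM + 1) on the horizontal axis, with lines for the range over TPM and 8 other settings, shading for the percentiles of 15240 genes and dotted lines at 2-fold. App at 0.68 and Psenen at -0.72 lie farthest from 0, the line of Aplp1 crosses 0, and no line reaches 2-fold.

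The libraries also differed in markers of brain regions, cell states and other cell types, on 13 lists of 81 markers in all. All 7 forebrain markers were lower in replicate 2, with a summed level of 315 TPM in replicate 2 against 737 TPM in replicate 1, 4 of them past 2-fold. All 9 hindbrain markers were higher, with sums of 159.9 TPM in replicate 2 against 24.0 TPM in replicate 1, 8 of them past 2-fold. Of 6 cycling-cell markers, 5 were lower in replicate 2, with sums of 319 TPM in replicate 2 against 593 TPM in replicate 1. Of 10 markers of young neurons, 9 were higher, with sums of 5403 TPM in replicate 2 against 4849 TPM in replicate 1 and none past 2-fold. All 5 markers of meninges and mesenchyme were higher, with sums of 520.0 TPM in replicate 2 against 265 TPM in replicate 1, and 2 were past 2-fold, Col1a1 (log2 ratio 1.97) and Col1a2 (1.33). All 7 erythroid markers were higher, with sums of 11601 TPM in replicate 2 against 9656 TPM in replicate 1, as were 4 of 5 endothelial markers, with sums of 164 TPM in replicate 2 against 139.9 TPM in replicate 1. Of 8 markers of radial glia and progenitors 3 were higher, with sums of 1970 TPM in replicate 2 against 2152 TPM in replicate 1. The lists for microglia (2 of 5 higher), myelin (2 of 5), astrocytes (3 of 5), liver (2 of 4) and skeletal muscle (3 of 5) were mixed, and 9 of the 13 lists had no marker past 2-fold. No marker was at 0 in both libraries, and Mog, a myelin gene, was the lowest, with 0.01 TPM in replicate 2 against a listed value of 0 in replicate 1. In bulk tissue fewer cells of a type and less RNA per cell cannot be told apart, and the part of these markers in the differences of App, Aph1a and Psenen was not tested. The libraries held 101105391 expected counts in replicate 2 and 107938353 in replicate 1.

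The transcript tables add little for the genes listed with a single transcript, which are App, Aplp1 and Psenen. App is represented there by App-201 (3128 nt), which lacks exons 7 and 8, so its splicing could be read from the junctions alone. Aplp2 has 2 listed transcripts. Aplp2-202, which holds exon 14 but not exon 7, took 53.0% of the gene's TPM in replicate 2 and 46.9% in replicate 1. Aplp2-201, which holds exon 7 but not exon 14, took 47.0% in replicate 2 against 53.1% in replicate 1. The leading form thus changed between the libraries, and the mean shares of 49.9% and 50.1% differed by less than their SD of 4.32 percentage points.

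Among the secretase genes, Ncstn and Psen2 had sizeable shares outside their protein-coding transcripts. Ncstn-201, the only protein-coding transcript listed for Ncstn, took 57.3% in replicate 2 and 54.5% in replicate 1, which is 59.3 TPM in replicate 2 against 63.0 TPM in replicate 1. The short retained-intron transcripts Ncstn-203 (831 nt) and Ncstn-202 (794 nt) took means of 20.5% ± 0.15 and 19.8% ± 2.61 (SD, n = 2). For Psen2, 12 transcripts were listed, of which 6 are protein-coding and held 77.8% of its TPM in replicate 2 and 73.5% in replicate 1. Psen2-205 led with 61.2% in replicate 2 and 47.6% in replicate 1. Psen2-203 was listed at 0 TPM in replicate 2 and at 1.91 TPM in replicate 1. These transcripts share most of their sequence, so the shares are estimates.

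Bace1 had 3 protein-coding transcripts with sizeable shares. The shortest of them (1148 nt) took 37.7% in replicate 2 and 38.1% in replicate 1. That lead holds in TPM, which divides by length. In expected counts it was the smallest of the 3, with 874 in replicate 2 and 786 in replicate 1. Bace1-202 (4041 nt) took 25.96% in replicate 2 and 36.6% in replicate 1, and Bace1-201, the longest at 6058 nt, took 25.9% in replicate 2 against 18.5% in replicate 1. Only the shortest was steady between the libraries. Aph1a was divided between Aph1a-202 (1000 nt) at 64.7% in replicate 2 and 66.6% in replicate 1 and Aph1a-201 (2863 nt) at 35.3% in replicate 2 against 33.4% in replicate 1. Adam10 was carried by Adam10-201, at 93.5% in replicate 2 and 91.8% in replicate 1.

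Spliced reads in the deposited mm9 junction table covered the genes densely. Each junction carries 1 count per library, called the first and second value here because neither number is tied to a sample. The first and second values of the mm9 RPKM need not follow the same order of libraries. App had 36.7 and 26.8 RPKM, whereas none of its introns had more reads in the first value than in the second. Of 139 annotated introns of the 9 genes, 121 had at least 1 read and 118 at least 10, with 318919 reads in all. Those without reads include listed introns of only 1 or 2 nt in Aplp1 and Aplp2. Median reads per intron with reads were 8375 for Aplp1, 6470.5 for App and 1599 for Aplp2. They were 964 for Ncstn, 652 for Adam10, 573 for Bace1 and 218.5 for Psen2. Aph1a had 145.5 and Psenen 60. Along App the introns between neighbouring exons other than 7 and 8 held 3918 to 8925 reads, while the introns next to exons 7 and 8 held 391 to 905.

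**Figure D3:**
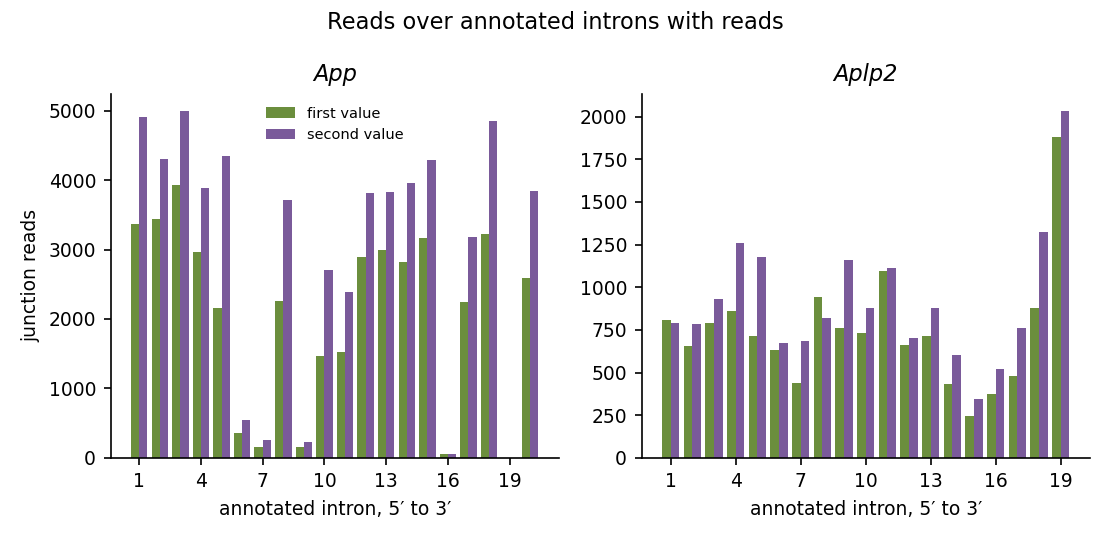
Junction reads (vertical axis, linear from 0) over each annotated intron with reads of App and Aplp2, numbered 5′ to 3′ along the gene, with overlapping introns side by side and 1 bar for each value of the table. In App the introns next to exons 7 and 8 fall to between 391 and 905 reads in all, whereas the intron that skips both holds 5987. In Aplp2 the introns next to exons 7 and 14 and those that skip them hold 590 to 1761.

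Inclusion of an exon is the mean of the reads that join it on its 5′ and 3′ sides as a percentage of that mean plus the reads that skip it. Among 106 internal exons, 36 had skipping reads and at least 20 reads in all. In 30 of these inclusion was 95.3% to 99.99%, and in 6 it was below 95%. Intervals are exact binomial (Clopper-Pearson, 95%) and cover counting error only, since reads without molecular identifiers are not independent molecules, and they do not test whether the libraries differ.

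The inhibitor exon was left out of most App junction reads, whereas Aplp2 used forms with and without it in sizeable shares. App exon 7 was included at 13.5% (interval 12.7 to 14.4%), with 14.3% and 13.1% in the first and second values. It was joined by 905 reads on its 5′ side and 977 on its 3′ side and skipped by 6010. Aplp2 exon 7 was included at 57.8% (interval 55.9 to 59.7%), which is 4.27 times the percentage of App, with 1307 and 1761 joining reads and 1121 skipping reads. Its first and second values were 64.2% (interval 61.5 to 66.9%) and 52.2% (interval 49.6 to 54.9%). The second interval includes equal use, whereas the summed and the first intervals lie above it. The mm10 transcript that holds this exon took 47.0% of Aplp2 in replicate 2 and 53.1% in replicate 1. The mm10 table lists no Aplp2 form with both exons 7 and 14 or with neither, so these shares do not measure exon 7 use separately. Both junction values of Aplp2 lay above both values of App.

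App exon 8, which encodes a short stretch resembling the OX-2 antigen, was included at 5.86% (interval 5.31 to 6.43%), with 6.10% and 5.71% in the first and second values. Of 6934 reads that enter exon 9 from exons 6, 7 or 8, 5987 came directly from exon 6 (86.3%, interval 85.5 to 87.1%), the form known to predominate in neurons. Another 556 came from exon 7 (8.02%, interval 7.39 to 8.68%), a junction between annotated sites that the mm9 annotation does not list, and 391 from exon 8 (5.64%, interval 5.11 to 6.21%). By value these shares were 85.3% and 87.0%, 8.73% and 7.58%, and 6.02% and 5.40%. Exon 8 was rarely used without exon 7: 5 reads joined exon 6 to exon 8, against 421 from exon 7 to exon 8.

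App exon 15, whose loss is known to create an attachment site for a chondroitin sulphate chain, was included at 98.5% (interval 98.1 to 98.7%), with 50 and 51 skipping reads in the first and second values. Aplp2 exon 14, whose loss is likewise known to permit that chain, was included at 62.0% (interval 59.6 to 64.5%). Its values of 62.1% and 62.0% were almost equal, unlike those of exon 7 of the same gene. The inclusion percentages of Aplp2 exons 7 and 14 sum to 119.8%, whereas each transcript in the mm10 table holds only 1 of them. Among the 6 Aplp2 transcripts on mm9, exon 7 is present in 3 and exon 14 in 2, and 1 transcript holds both. The mm10 table lists no such form. Aplp1 had no exon below 95%, and the lowest of its 4 exons with skipping reads was exon 16 at 99.9%. Only that exon of Aplp1 kept skipping reads under the reproducibility limit. Its number is that in an mm9 transcript of 19 exons, and the mm9 annotation of Aplp1 includes introns of 1 and 2 nt without reads.

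Among the secretase genes 2 exons were below 95%, and the other 11 with skipping reads were at 95.3% or above. Aph1a exon 5 (128 nt) was included at 87.5% (interval 81.6 to 92.1%), on 134 and 161 joining reads and 21 skipping reads, with values of 84.2% and 91.3%. Ncstn exon 3 (115 nt), which is present in 1 of 6 mm9 transcripts, was included at 2.49% (interval 1.43 to 4.02%), the lowest of all 36 exons, and was skipped by 626 reads. Neither length is divisible by 3. Bace1 exon 6 (102 nt) was included at 98.1% (interval 96.8 to 99.0%). Adam10 had 6 exons with skipping reads, from 97.4% for exon 2 to 99.9% for exon 4. Under the reproducibility limit only exon 2 of Adam10 kept skipping reads. Psen2 had no exon with skipping reads.

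**Figure D4:**
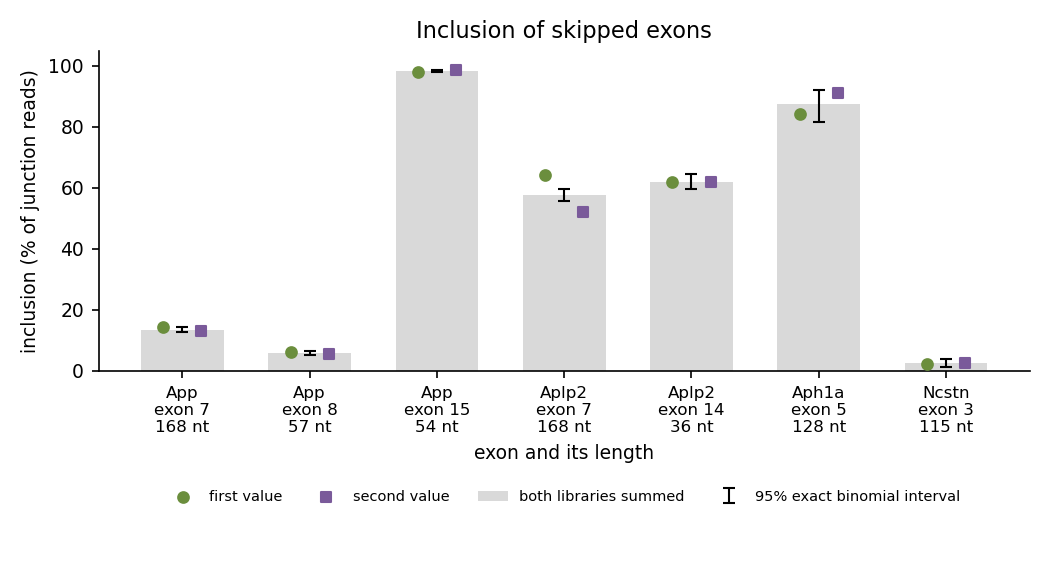
Inclusion in percent of junction reads (vertical axis, linear from 0) of the 6 exons below 95% and of App exon 15, with bars for both libraries summed, error bars for the 95% exact binomial interval and points for the first and second values of the table. App exons 7 and 8 stand at 13.5% and 5.86%, Aplp2 exons 7 and 14 at 57.8% and 62.0%, and the points of Aplp2 exon 7 lie farthest apart.

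Besides annotated introns, 38 junctions inside the genes had a reproducibility value of 0.1 or less, the authors' fraction for which low is reproducible, and together held 1239 reads. They made up 17.5% of the junction reads of Psenen, 5.03% of those of Aph1a and 1.18% of those of Ncstn, and under 1% in the other members. In Psenen, 53 reads used a site other than the annotated one, which had 60, and the values were 25 and 28 against 30 and 30. In Ncstn, 118 reads used a site 10 bases from an annotated one that had 982.

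By the deposited mm9 gene values in RPKM, 4 of the 9 members kept their place in the order of means (Aplp1, App, Aplp2 and Psen2) and 5 moved. App had 36.7 and 26.8 RPKM in the first and second values, Aplp1 36.7 and 41.6, and Aplp2 16.4 and 16.3. These values are not matched to the first and second values of the junctions. Psenen had 1.43 and 2.65 RPKM and moved from the 6th place in TPM to the 8th, below Adam10 and Bace1, and Ncstn, with 9.84 and 12.6 RPKM, passed Aph1a, with 5.42 and 9.03. App and Aplp1 were level in the first value. The mean RPKM of Psenen was 0.02 of its mean TPM and that of Aph1a 0.06, whereas the median over 8964 protein-coding genes with a mean of at least 10 TPM was 0.11. Reads per intron per TPM were 0.56 for Psenen and 1.12 for Aph1a, and 8.80 to 21.9 for the other members, against a median of 13.3 over all genes. Only 2.54% of those genes had a lower ratio than Psenen and 4.08% a lower one than Aph1a.

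**Figure D5:**
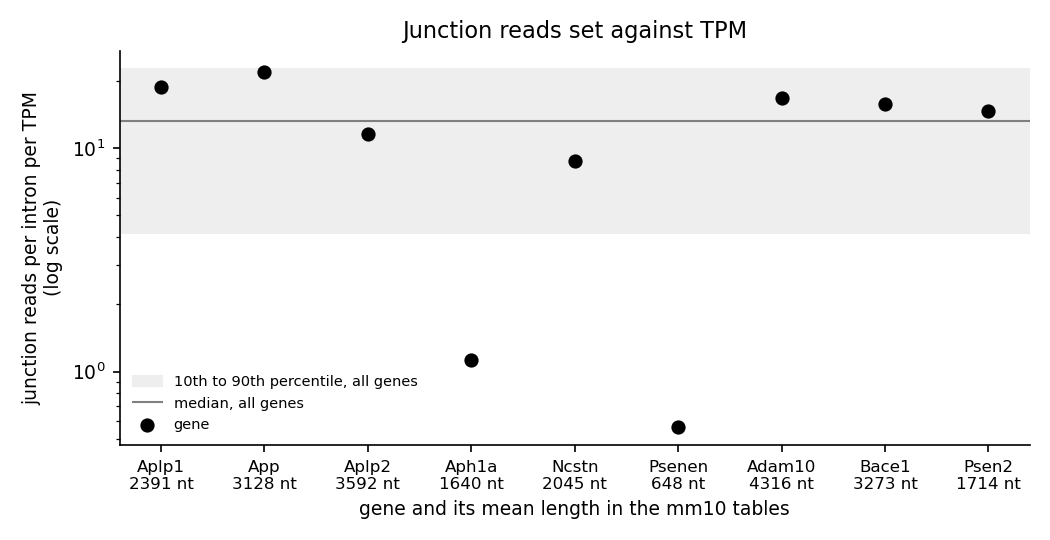
Median junction reads per annotated intron with reads, divided by mean TPM (vertical axis, log scale), for each gene with its length, the shading giving the 10th to 90th percentile and the line the median of 8964 protein-coding genes. Psenen at 0.56 and Aph1a at 1.12 lie below the shading, and the other members lie within it.

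TPM, RPKM and junction reads thus placed Psenen and Aph1a differently against Ncstn. At 648 nt Psenen is the shortest of the 9 genes in the mm10 tables. Among 708 genes shorter than 1000 nt the median of reads per intron per TPM was 11.4 and the 10th percentile 0.46, and Psenen at 0.56 lay just above that percentile. Its RPKM per TPM of 0.019 lay below the 10th percentile of those genes, 0.023. Aph1a (mean length 1640 nt), at 1.12 reads per intron per TPM and 0.056 RPKM per TPM, lay below the 10th percentile of both ratios among 2545 genes of 1000 to 2000 nt, which for RPKM per TPM was 0.077. The cause was not tested.

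Genes close to the members were listed for shared reads and shared starts. The start of Ncstn lies 266 bases from that of Copa, a coat protein gene on the opposite strand, which had 103 TPM in replicate 2 against 65.9 TPM in replicate 1. The start of Psenen lies 326 bases from that of U2af1l4, a splicing factor gene on the opposite strand, which had 59.7 TPM in replicate 2 against 83.2 TPM in replicate 1. Copa was higher in replicate 2 where Ncstn was slightly lower, while U2af1l4 and Psenen were both lower. Bace1 overlaps the antisense gene Gm16536 over 1589 bases (41.7 TPM in replicate 2 against 37.4 TPM in replicate 1) and Rnf214 over 975 bases on the other strand. The libraries are stranded per the labels, but no source used here says whether the counting used strand, so these overlaps leave the level of Bace1 uncertain. The same holds for opposite-strand overlaps of Psenen with U2af1l4 (327 bases) and Gm49396 (284 bases), of Aph1a with Car14 (521 bases, 6.57 TPM in replicate 2 against 7.84 TPM in replicate 1) and of Ncstn with Copa (267 bases). Psen2 overlaps Gm31728 over 7010 bases (0.22 TPM in replicate 2 against 0.68 TPM in replicate 1), and App overlaps 5 noncoding or pseudogene entries.

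Of 61 genes on 8 lists of partners, regulators and other substrates, 60 were measured and 58 detected, against 62.2% of all protein-coding genes. The lists were chosen with earlier results of these data known, so a high share detected is no independent result. All 9 measured cytoplasmic adaptors were detected, led by Apbb1 (168 TPM in replicate 2 against 195 TPM in replicate 1), which binds the App tail, and Mapk8ip1 (163 TPM in replicate 2 against 159.9 TPM in replicate 1), a scaffold of kinase signalling. All 10 sorting genes were detected, led by the reticulons Rtn3 (387 TPM in replicate 2 against 365 TPM in replicate 1) and Rtn4 (219.9 TPM in replicate 2 against 245 TPM in replicate 1). All 5 modulators were detected, led by Itm2b (237 TPM in replicate 2 against 254 TPM in replicate 1) and Itm2c (122 TPM in replicate 2 against 139 TPM in replicate 1), membrane proteins known to hinder App cleavage.

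Genes that act on Adam10 were also mostly detected. Of 6 tetraspanins that escort it 5 were detected, led by Tspan14 (65.3 TPM in replicate 2 against 77.4 TPM in replicate 1) and Tspan5 (67.8 TPM in replicate 2 against 65.2 TPM in replicate 1). All 4 inhibitors were detected, led by Sfrp1 (23.8 TPM in replicate 2 against 26.6 TPM in replicate 1) and Timp3 (17.3 TPM in replicate 2 against 11.1 TPM in replicate 1). Of 6 other secretase genes 5 were detected, among them Aph1b (15.2 TPM in replicate 2 against 17.8 TPM in replicate 1), an alternative to Aph1a. All 5 peptide-degrading enzymes were detected, led by Thop1 (52.9 TPM in replicate 2 against 71.3 TPM in replicate 1) and Ece2 (24.7 TPM in replicate 2 against 32.7 TPM in replicate 1). The median mean level of the lists, undetected genes included, ran from 10.6 TPM for the tetraspanins to 71.6 TPM for the modulators. The median was 5.78 TPM over all protein-coding genes and 20.5 TPM over the detected ones.

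Other substrates of the same enzymes were all detected, 15 of 15. L1cam, an adhesion molecule of axons, had 189 TPM in replicate 2 against 116 TPM in replicate 1, and Sez6, a substrate of Bace1, had 133 TPM in replicate 2 against 143 TPM in replicate 1. Across the 60 measured genes, 4 lay past 2-fold, all higher in replicate 2, a direction in which 2.39% of all genes lay past it. None lay past it in the lower direction, against 1.14% of all genes. Jag1, a Notch ligand, had 9.87 TPM in replicate 2 against 3.02 TPM in replicate 1 (log2 ratio 1.44). Apbb2, another adaptor of the App tail, had 27.5 TPM in replicate 2 against 12.5 TPM in replicate 1 (1.08), Ece1, a peptide-degrading enzyme, 12.02 TPM in replicate 2 against 5.38 TPM in replicate 1 (1.03), and Ncam1, an adhesion molecule, 171 TPM in replicate 2 against 84.3 TPM in replicate 1 (1.01). The last 3 lay just past the limit, and with the authors' posterior mean TPM Ece1 and Ncam1 did not pass it.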

How the data were processed

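RNA of whole brains at embryonic day 14.5 was sequenced in 2 libraries of 101-nt paired reads, per the labels. The deposited mm10 tables hold expected counts, TPM, FPKM and, per transcript, isoform percent, which the authors estimated on GENCODE M4, per the file headers and text notes. Which tool made them is not stated there. The deposited mm9 gene table gives RPKM on Ensembl 65, with 2 values not tied to a sample. The deposited junction table gives read counts, summed and per library, and a reproducibility value, a fraction. TPM includes mitochondrial and spike-in rows.

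The members and lists were chosen with earlier results of these data known. Symbols, transcript names and mm10 positions came from GENCODE vM21, and mm9 and mm10 exons were matched by transcript structure, not by coordinates. TPM shares and log2 ratios with a pseudocount of 1 were computed with Python 3.11.15, numpy 2.4.6, pandas 2.3.3 and scipy 1.17.1. Exon inclusion counted all junctions between annotated sites that join or skip an exon. This extends the planned single skipping junction, because App exons 7 and 8 are adjacent. Overlapping exons were reduced to the best supported, and 4 exons without joining reads on both sides were left out. Alternatives used R 4.3.3 with edgeR 4.0.16 (TMM) and DESeq2 1.42.0 (size factors) on expected counts rounded to whole numbers, and a polynomial of degree 3 in effective length and GC content. The ratio call and the inclusion formula, with 1 skipping count per exon, were run on simulated data with counting error only. Such data do not test the spread between libraries. Named were the 9 members, the 2 highest detected genes of each list, list genes past 2-fold and neighbours with starts within 1 kb; 1 list gene is not reported here, although counts include it. The other substrates and marker lists are summarised. A planned protein comparison was not run here. At these depths 3 counts are 3.08e-06% of the annotated counts of replicate 2 and 2.90e-06% of those of replicate 1, for counting error only.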

Additional observations from a re-analysis of the deposited data

How the results depend on the processing

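All 9 members were detected, and none lay past 2-fold, under every alternative run for those counts. The ratios of App, Aplp2, Adam10 and Bace1 stayed above 0 and those of Aph1a, Ncstn, Psenen and Psen2 below 0 under 8 other settings, whereas that of Aplp1 ran from -0.08 to 0.10. App ran from 0.60 to 0.78 and Psenen from -0.78 to -0.59. No scaling moved the median of all genes by more than 0.09. The count of all genes past 2-fold was 537 and became 898 with a pseudocount of 0.1, 841 with DESeq2 size factors, for which the added 1 is in counts, and 282 at a mean of 10 TPM or more, where fewer genes are tested. With posterior mean TPM 2 list genes lay past 2-fold in place of 4, Ece1 and Ncam1 being the ones lost; the cause was not tested. In replicate 1 alone 6 of 8 neighbours kept the order of mean TPM, and in replicate 2 alone 8; being apart has no value with 1 library. Under mm9 RPKM 6 of 8 kept the order and 6 were apart, but these were not the same pairs. Of the 5 apart in TPM, App over Aplp2 and Bace1 over Psen2 remained, Psenen over Adam10 reversed to a mean log2 ratio of -1.28, and Aplp1 over App (0.32) and Adam10 over Bace1 (0.06) fell below their spread. Aph1a over Ncstn, not apart in TPM, was -0.67 in RPKM. The cause was not tested. With the lower and the higher of both joining junctions, Aplp2 exon 14 was included at 60.2% and 63.7%, and Ncstn exon 3 at 1.73% and 3.25%. Other junctions inside the genes numbered 22 at 10 reads or more and 719 with no limit on reproducibility. No paired analysis was possible because both libraries belong to 1 group.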

Other observations

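A junction of 235 reads, 128 and 107 in the first and second values, joined an annotated splice site of Aplp1 to a position outside the gene, at 30846036 to 31227816 on mm9 chromosome 7. The annotated intron that uses the same Aplp1 site had 7507 reads.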
